A study of Caenorhabditis elegans with 15 samples.

Results

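R08F11.4, nemt-1 and F49C12.7 are 3 protein-coding genes of Caenorhabditis elegans, out of 46778 genes in the count table and 22929 with at least 1 read. They were chosen by their measured RNA level, because it was lower in worms given silver (Ag) nanoparticles than in unexposed worms. That difference is therefore a description here and carries no test. Worms of the wild-type laboratory strain N2 were given no particles (Control) or, at 10 µg/ml, particles of Ag or of SiO2 (silica), and the RNA of whole worms was sequenced in 5 samples of each group. All groups shared the same strain, the bacterial food, growth for 72 h at 21 °C and collection at adult day 1. The labels place the particles after that growth, whereas the methods of the study describe larvae grown in the particles, and the labels do not settle which was done. Between 16560734 and 24296570 reads were counted per sample, with the medians of the 3 groups between 19097708 and 19969382.

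Silver nanoparticles can release silver ions, which bind the sulphur atoms of proteins and small thiols, whereas silica particles carry no such metal. In C. elegans, genes lie close together, neighbours on 1 strand are often transcribed as a unit (an operon), and neighbours on opposite strands can overlap at their ends. The annotation used here gives the 3 genes a name and a position but no role, so none is assigned to them.

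In the WBcel235 build, R08F11.4 (WBGene00019968) is on chromosome V from 3803839 to 3805527, on the minus strand, with 5 exons in 1 transcript and an exon length of 1228 bases. The gene nemt-1 (WBGene00009879) is on chromosome IV from 9318148 to 9319439, on the minus strand, with 6 exons in 1 transcript and an exon length of 1064 bases. F49C12.7 (WBGene00009877) lies on the same strand of chromosome IV from 9308831 to 9312927, with 3 transcripts and a joint exon length of 1796 bases. Between F49C12.7 and nemt-1 there are 5220 bases, which hold 1 whole gene, F49C12.9. The exons of nemt-1 share 394 bases with rpn-7, a subunit of the proteasome lid, and 60 bases with F49C12.11, both on the other strand. The exons of F49C12.7 share 233 bases with F49C12.6 on the same strand. R08F11.4 shares exon bases with no other gene.

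R08F11.4 was nearly lost in Ag and overlapped with Control in SiO2, nemt-1 was far lower in Ag and intermediate in SiO2, and F49C12.7 was lower in Ag and higher in SiO2. The word silenced fits these values to different degrees, because R08F11.4 kept 5.18% of its Control level in Ag, nemt-1 14.1% and F49C12.7 47.2%. For all 3 genes the Ag samples lay below the Control samples without overlap, which the choice of the genes makes likely. Of all 20669 genes tested in Ag against Control, 4.35% were called higher and 3.41% lower by edgeR at an adjusted p under 0.05, and of 21180 tested in SiO2 against Ag, 2.04% higher and 1.36% lower. Levels are given as CPM, the reads of a gene scaled to a common library total, here with library sizes adjusted by TMM. In CPM per kilobase of exon, which allows genes of different length to be compared, the Control means were 87.1 for F49C12.7, 23.8 for nemt-1 and 14.3 for R08F11.4. In Ag that order was kept, at 41.2, 3.32 and 0.727 CPM per kilobase, and in SiO2 it was 189.2 for F49C12.7, 15.1 for R08F11.4 and 12.2 for nemt-1. The SDs in SiO2, 3.70 for R08F11.4 and 6.48 for nemt-1, were larger than the difference between these last genes.

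**Figure D1:**
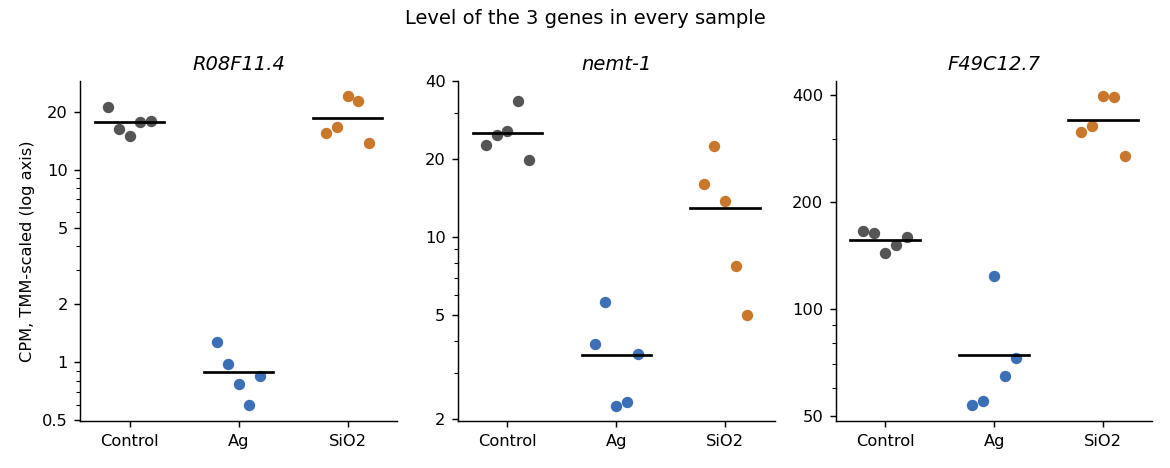
CPM of R08F11.4, nemt-1 and F49C12.7 on a log axis for each of the 15 samples, grouped as Control, Ag and SiO2, where a point is 1 sample and a line the group mean. The 5 Ag points lie below the 5 Control points for every gene, and the SiO2 points of F49C12.7 lie above them.

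In the 5 Control samples the level of R08F11.4 was 21.2, 16.21, 15.0, 17.7 and 17.9 CPM. In the 5 Ag samples it was 1.27, 0.978, 0.770, 0.596 and 0.850 CPM. The highest Ag sample was thus far under the lowest Control sample, and no sample of either group lay between 1.27 and 15.0 CPM. The means were 17.6 ± 2.33 (SD, n = 5) in Control and 0.892 ± 0.251 (SD, n = 5) in Ag, and the fitted difference was -4.27 ± 0.19 (log2, SE), or 19.3-fold. Among the 14287 genes with a mean of at least 1 CPM, this was the lowest fitted value in Ag, which describes how the gene was picked. The Ag samples held 28, 21, 12, 11 and 15 reads of it, 87 in all, for which counting error alone gives a 95% exact Poisson interval of 69.7 to 107.3. At that depth, counting error alone gives a coefficient of variation of 23.97%, and 28.2% was observed. In Control the observed 13.2% compared with 5.31% from counting.

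In the 5 SiO2 samples R08F11.4 was at 15.4, 16.6, 23.96, 22.7 and 13.8 CPM, a mean of 18.5 ± 4.54 (SD, n = 5). The SiO2 and Control samples overlapped, with 2 SiO2 samples above every Control sample and 1 below every Control sample. The difference was 0.072 ± 0.16 (log2, SE; adjusted p = 0.892 in edgeR's quasi-likelihood test, two-sided exact permutation p = 0.714), with a 95% interval of -0.29 to 0.44. The test on SiO2 uses the same Control samples that had a share in the choice of the genes. Leaving out SiO2 sample 13 or SiO2 sample 14 turned the sign of this value, to -0.035 and -0.023. The SiO2 samples were 4.34 ± 0.21 (log2, SE) above the Ag samples, a value given without a test because the Ag samples chose the gene.

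The level of nemt-1 in Control was 22.6, 24.9, 25.7, 33.4 and 19.9 CPM. In Ag it was 3.89, 5.64, 2.25, 2.33 and 3.57 CPM. All Ag samples lay below all Control samples, and among the Ag samples 7 was the highest and 8 and 9 were the lowest. The means were 25.3 ± 5.06 and 3.53 ± 1.38 (SD, n = 5 each), and the fitted difference was -2.82 ± 0.23 (log2, SE), or 7.09-fold, second to R08F11.4 among the same 14287 genes. The Ag samples held between 35 and 121 reads of nemt-1, and their coefficient of variation of 39.1% was above the 12.0% that counting error gives.

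In SiO2 nemt-1 was at 16.0, 22.5, 13.8, 7.76 and 5.03 CPM, the widest spread of any group of the 3 genes, with a coefficient of variation of 53.0%. SiO2 sample 12 was inside the Control range, the other 4 were below it, and sample 15 was below the highest Ag sample. The mean was 13.0 ± 6.90 (SD, n = 5), and the difference from Control was -0.95 ± 0.29 (log2, SE), with a 95% interval of -1.62 to -0.29. It did not pass over all genes (adjusted p = 0.0982, edgeR's quasi-likelihood test), while the two-sided exact permutation test on the CPM of this gene alone gave p = 0.0159, where 5 samples against 5 allow no p under 0.00794. With edgeR's likelihood ratio test the adjusted p was 0.0309, and without SiO2 sample 12 the quasi-likelihood test gave -1.25 at an adjusted p of 0.0340. These tests use the same Control samples that had a share in the choice of the gene. Choosing it for a Control level above that of Ag can also favour a lower value in SiO2. The SiO2 samples were 1.87 ± 0.33 (log2, SE) above the Ag samples, given without a test.

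F49C12.7 was the most abundant of the genes and the tightest in Control, at 165.1, 163.0, 143.3, 151.2 and 159.6 CPM. In Ag it was at 53.6, 55.0, 123.6, 64.8 and 72.9 CPM. Ag sample 8 stood apart from the other Ag samples and close under the lowest Control sample, yet the groups did not overlap. The means were 156.4 ± 9.04 and 74.0 ± 28.8 (SD, n = 5 each), a fitted difference of -1.08 ± 0.19 (log2, SE), or 2.12-fold. Without Ag sample 8 the difference was -1.35. F49C12.7 ranked 83rd from the lowest among the 14287 genes in Ag.

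In SiO2 F49C12.7 was at 314.7, 326.6, 395.0, 394.4 and 268.5 CPM, a mean of 339.9 ± 54.6 (SD, n = 5). Every SiO2 sample was above every Control sample and every Ag sample. F49C12.7 rose in SiO2 by 1.12 ± 0.11 (log2, SE), or 2.17-fold, with a 95% interval of 0.86 to 1.38 (adjusted p = 4.68e-05 in edgeR's quasi-likelihood test, two-sided exact permutation p = 0.00794, the smallest that 5 samples against 5 can give). Of all 20739 genes tested in SiO2 against Control, 1.91% were called higher and 0.743% lower at an adjusted p under 0.05. In all, 1 of the 3 genes was called in SiO2 against Control. The SiO2 samples were 2.20 ± 0.18 (log2, SE) above the Ag samples, again without a test. The samples are whole worms, so that fewer cells of a type and less RNA per cell cannot be told apart for any of these differences.

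**Figure D2:**
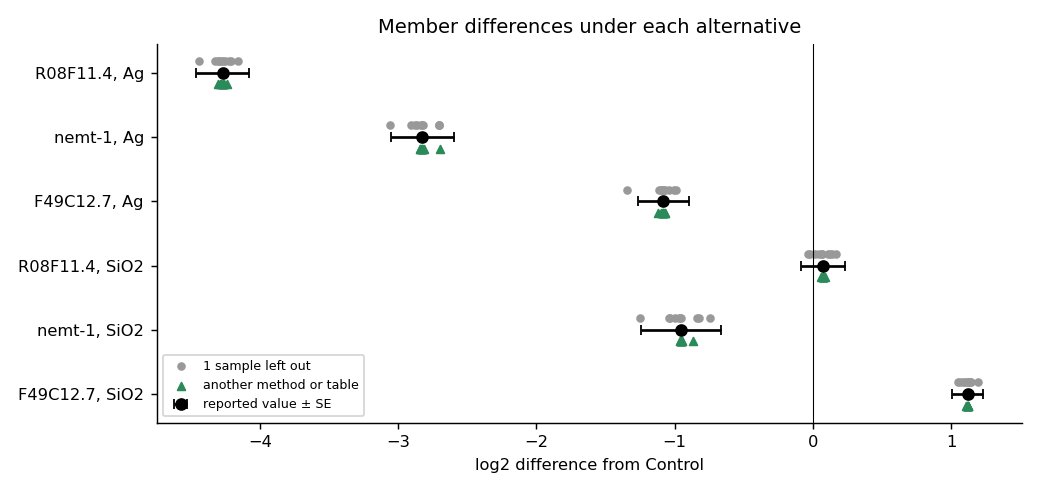
Log2 difference from Control of each gene in Ag and in SiO2, with the reported value and its SE (black), the values with 1 sample left out (grey) and those from another method or count table (green). The Ag values stay below 0 and F49C12.7 in SiO2 stays above 0 in every case, while R08F11.4 in SiO2 lies on both sides of 0.

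The estimates that Kallisto made from the same reads gave the same order of groups for each gene. For R08F11.4 the means were 17.1, 0.921 and 17.98 CPM in Control, Ag and SiO2. For nemt-1 they were 32.7, 5.17 and 17.5 CPM, higher than the HTSeq values in all groups. For F49C12.7 they were 158.1, 77.3 and 338.2 CPM. Over all samples, the estimated counts of nemt-1 came to 118.6% of its HTSeq counts, against 87.9% for R08F11.4, 90.5% for F49C12.7 and 88.9% over all genes tested. For nemt-1 this share was 115.3% in Control, 128.4% in Ag and 122.2% in SiO2. HTSeq in its strict mode leaves out reads that fit more than 1 gene, and the strand setting was not stated in the sources used here. Reads over the 394 bases shared by nemt-1 and rpn-7 may be missing from either gene in the counts, or be shared out differently by Kallisto. The reason for the higher share in nemt-1 was not tested. In rpn-7 the estimates came to 84.8% of the counts, and in F49C12.11, which shares the other end of nemt-1, to 30.9%.

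The 3 genes also differed in how much their replicates varied. The tagwise biological coefficient of variation in edgeR, fitted over the 15 samples, was 0.336 for nemt-1, above that of 98.0% of the 3817 genes whose mean was within 2-fold of its own. For F49C12.7 it was 0.2003, above 91.4% of 1837 such genes. For R08F11.4 it was 0.185, above 65.5% of 3647 such genes.

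Over the 15 samples the log2 CPM of R08F11.4 had a Pearson r of 0.84 with nemt-1 and of 0.83 with F49C12.7, and nemt-1 and F49C12.7 had an r of 0.50. These points share their groups, and the genes were picked for 1 of the differences between them. With the mean of each group removed, r was 0.29, 0.037 and -0.24 for the same pairs, again over 15 samples. Within the 5 samples of each group r differed between groups: for R08F11.4 with F49C12.7 it was 0.68 in Control, -0.45 in Ag and 0.98 in SiO2. For R08F11.4 with nemt-1 it was -0.25, 0.70 and 0.13, and for nemt-1 with F49C12.7 -0.50, -0.69 and 0.28, in the same order. Ag sample 8 had the highest F49C12.7 and the lowest nemt-1 of its group. By r with R08F11.4 over the 15 samples, nemt-1 ranked 42nd and F49C12.7 55th of 14286 genes.

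For R08F11.4 the 5 most alike genes outside the set were W02B12.13, T02G5.14, the C-type lectin gene clec-169, unc-25, which encodes the enzyme that makes GABA, and K05F6.4, with r between 0.90 and 0.93. The level of unc-25 was 53.7, 31.6 and 48.6 CPM in Control, Ag and SiO2. For nemt-1 they were mab-3, a transcription factor of male development, F17E5.2, T23C6.4, F48F7.6 and fil-1, a lipase induced by fasting, with r between 0.92 and 0.94. The level of fil-1 was 282.4, 53.0 and 140.7 CPM, and its fitted difference in Ag of -2.41 was the fourth lowest among the 14287 genes. For F49C12.7 they were cpr-1, a gut cysteine protease, ugt-18, a UDP-glucuronosyltransferase, gba-4, an unnamed gene (WBGene00044642) and C18A11.3, with r between 0.94 and 0.96. The level of cpr-1 was 2070 CPM in Control, 1480 in Ag and 3881 in SiO2, the same order as in F49C12.7.

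By the deviations from the group means, other genes came first. Those of R08F11.4 were Y47H10A.5, K01A6.6, ZK105.13, F27E5.9 and the astacin protease gene nas-4, with r between 0.71 and 0.78. Those of nemt-1 were T08G3.11, K03B4.8, the nuclear receptor gene nhr-260, bus-2 and R52.6, with r between 0.90 and 0.96. Those of F49C12.7 were the C-type lectin gene clec-70, Y51H7C.9, the ornithine aminotransferase gene oatr-1, the collagen gene col-179 and the cysteine protease gene cpr-9, with r between 0.92 and 0.95. None of the 5 genes was shared between both measures for any of the 3 genes. With the Kallisto estimates in place of counts, 4 of the 5 were shared for R08F11.4, 2 for nemt-1 and 4 for F49C12.7.

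No neighbour of the 3 genes was called in Ag by edgeR's quasi-likelihood test. Within 20000 bases lay 30 other genes with at least 1 read, 11 around R08F11.4 and 19 around nemt-1 and F49C12.7. Of these, 5 on chromosome V and 13 on chromosome IV had a mean of at least 1 CPM. The others held at most 109 reads over all samples, which limits a call on them. In Ag against Control 0 of the 30 passed edgeR's quasi-likelihood test, 12 had an unadjusted p under 0.05, and DESeq2 called 5. Over all genes tested in Ag, edgeR called 4.35% higher and 3.41% lower, 29.9% had an unadjusted p under 0.05 and DESeq2 called 15.3%. The median difference of the 30 was 0.021 in Ag, against -0.0086 over all genes tested.

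On chromosome V, cyp-33C8, a cytochrome P450 gene that lies 296 bases from R08F11.4 on the same strand, was at 7.16 ± 0.953, 10.1 ± 1.78 and 5.97 ± 1.12 CPM in Control, Ag and SiO2 (SD, n = 5 each). Its difference in Ag was 0.49 ± 0.15 (log2, SE; adjusted p = 0.0616, edgeR's quasi-likelihood test), opposite in sign to that of R08F11.4. DESeq2 (adjusted p = 0.0122) and edgeR's likelihood ratio test (adjusted p = 0.0347) called cyp-33C8 higher in Ag, and the other alternatives did not. Of the 5 neighbours of R08F11.4 with a mean of at least 1 CPM, H10D18.1 was the lowest in Ag, at -0.73 ± 0.22 (log2, SE; adjusted p = 0.0509). On chromosome IV, F49C12.9, between nemt-1 and F49C12.7, was at 64.4 ± 10.7, 70.7 ± 8.63 and 63.5 ± 9.56 CPM. The overlapping neighbour rpn-7 was at 137.8 ± 26.3, 176.8 ± 26.5 and 150.1 ± 32.02 CPM, with a difference in Ag of 0.36 ± 0.14 (log2, SE; adjusted p = 0.0988). F49C12.6, which shares exon bases with F49C12.7, was at 11.8 ± 2.101, 10.0 ± 1.696 and 9.22 ± 1.83 CPM. Over the 13 neighbours on chromosome IV with a mean of at least 1 CPM, the differences in Ag ran from -0.24 to 0.70, and vha-17, a subunit of the proton pump of vacuolar membranes, was at -0.053 ± 0.10 (log2, SE).

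In SiO2 against Control 1 of the 28 neighbours tested was called, R08F11.7, which fell by 1.37 ± 0.29 on the log2 scale (adjusted p = 0.0172, edgeR). In SiO2 against Ag, 1 of the 30 neighbours was called higher and 2 were called lower, beside 2.04% and 1.36% of all genes. F49C12.4 was higher, at 2.37 ± 0.56 (log2, SE; adjusted p = 0.0224, edgeR), from only 75 reads over all samples. It was not called without Ag sample 9 (2.26, adjusted p = 0.0605), without SiO2 sample 15 (1.76, adjusted p = 0.0721) or with the 2 groups fitted alone (2.36, adjusted p = 0.0690). Against Control F49C12.4 was at -1.27 ± 0.55 in Ag and 1.10 ± 0.47 in SiO2 (log2, SE). Neither passed (adjusted p = 0.139 and 0.272, edgeR). R08F11.7 was lower in SiO2 than in Ag by a log2 difference of -1.58 ± 0.29 (adjusted p = 0.00438) and cyp-33C8 by -0.75 ± 0.16 (adjusted p = 0.0108).

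**Figure D3:**
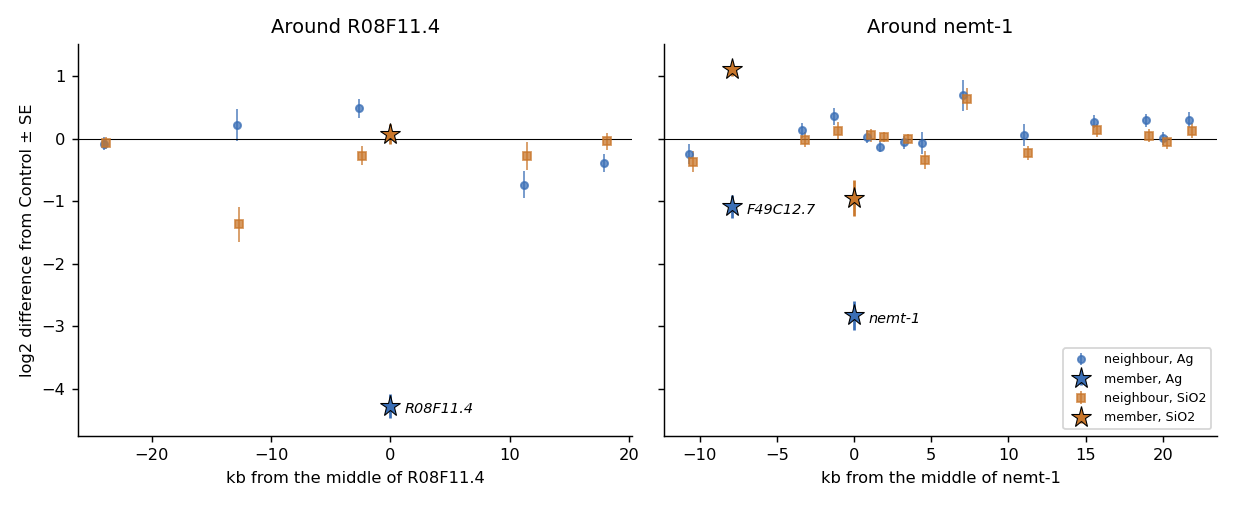
Log2 difference from Control, with its SE, of R08F11.4 (left), nemt-1 and F49C12.7 (right, stars) and of their neighbours with a mean of at least 1 CPM, in Ag (blue) and SiO2 (orange), by distance in kilobases. The neighbours drawn lie between -0.73 and 0.70 in Ag, above the 3 stars, whose genes were chosen for low values in Ag. Neighbours with a mean under 1 CPM are not drawn.

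The genes of 4 lists of methyl-group and lipid metabolism were read beside the 3 genes, although the annotation used here links none of the 3 to these lists. Like the marker lists below, they were chosen with earlier results of these data known. Their counts beside the shares of all genes are therefore descriptions. In the methionine cycle, methionine is turned into S-adenosylmethionine, the methyl donor of most methyltransferases, which is used up to form homocysteine and is remade or passed on to cysteine. Of its 18 genes, 3 rose and 1 fell in Ag, where edgeR called 4.35% of all genes higher and 3.41% lower. The gene cth-1, a cystathionine gamma-lyase of cysteine synthesis, rose from 15.4 ± 1.37 to 42.0 ± 7.02 CPM (log2 difference 1.44 ± 0.13, adjusted p = 2.82e-05, edgeR). The S-adenosylmethionine synthetase gene sams-3 rose by 0.51 (adjusted p = 0.0140) and mtrr-1, methionine synthase reductase, by 0.46 (adjusted p = 0.0397). The cystathionine beta-synthase gene cbs-1 fell by 0.48 on the log2 scale (adjusted p = 0.0224). Methionine synthase metr-1 was at 0.28 ± 0.12, sams-1 at -0.0043 ± 0.091 and the adenosylhomocysteine hydrolase ahcy-1 at -0.065 ± 0.11 (log2, SE), none of which passed.

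Of the 16 genes of phosphatidylcholine and phosphatidylethanolamine synthesis, 1 rose and 1 fell in Ag, the phosphatidylserine synthases pssy-2 (0.70, adjusted p = 0.0295) and pssy-1 (-0.39, adjusted p = 0.0277). The phosphoethanolamine methyltransferases pmt-1 and pmt-2 were at -0.25 ± 0.14 and -0.24 ± 0.089 (log2, SE), which did not pass, although DESeq2 called pmt-2 (-0.23, adjusted p = 0.0456). The regulator gene sbp-1 was at 0.33 ± 0.099 (log2, SE; adjusted p = 0.0519, edgeR's quasi-likelihood test), and 5 of 8 other methods, filters or tables called it higher. Of the 13 genes of vitamin B12 use and propionate breakdown, 4 rose and 0 fell. The propionate shunt gene acdh-1 rose from 4.41 ± 4.21 to 38.7 ± 16.8 CPM (log2 difference 3.14 ± 0.49, adjusted p = 0.00325), with hphd-1 (0.62, adjusted p = 0.0374), hach-1 (0.42, adjusted p = 0.0469) and nhr-68, a nuclear receptor that controls the shunt (0.41, adjusted p = 0.0437). Of 15 small-molecule methyltransferases 1 rose, comt-5 (2.19, adjusted p = 0.0384), at 11.0 ± 12.5 CPM in Ag, and without Ag sample 8 it was at 1.23 with an adjusted p of 0.0713. With DESeq2, which called 15.3% of all genes in Ag, 5, 6, 7 and 3 genes of the 4 lists were called in place of 4, 2, 4 and 1. At an unadjusted p under 0.05 in edgeR there were 7, 6, 8 and 10 genes, against 29.9% of all genes. The genes pmt-1 and pmt-2 are counted in both the phosphatidylcholine and the methyltransferase list. The median differences in Ag were 0.17, 0.15, 0.31 and 0.060 for the 4 lists in this order, against -0.0086 over all genes tested.

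Of these 11 calls in Ag, cth-1 and acdh-1 passed whichever sample was left out. Without Control sample 3 the other 9 were lost, at adjusted p values up to 0.119, and sams-3 was lost only there. Without Control sample 2, Control sample 4 or Ag sample 9, 8 were lost, without Control sample 1, Ag sample 7 or Ag sample 8, 4, without Ag sample 10, 5, and without Control sample 5, 1. Over all genes the 1604 calls in Ag likewise became 353 without Control sample 3. They became 445 without Control sample 2, 511 without Control sample 4 and 693 without Ag sample 9. In SiO2 against Control 0 genes of the 4 lists were called by edgeR's quasi-likelihood test, with 2, 2, 3 and 2 genes at an unadjusted p under 0.05, and DESeq2 called 1, 0, 0 and 1. In SiO2 acdh-1 was at 20.13 ± 19.99 CPM (log2 difference 2.20 ± 0.66, adjusted p = 0.0932), and edgeR's likelihood ratio test called it (adjusted p = 0.0213) and cbs-1 (adjusted p = 0.0420). The acdh-1 difference of SiO2 from Ag, -0.95 ± 0.58, did not pass (adjusted p = 0.352, edgeR). In SiO2 against Ag, cth-1 was lower in SiO2 (log2 difference -1.27 ± 0.13, adjusted p = 1.03e-05) and so was sbp-1, a regulator of lipid synthesis (-0.40 ± 0.10, adjusted p = 0.0335). The call on sbp-1 was lost without Ag sample 8 or 9 or SiO2 sample 11, 12 or 13, at adjusted p values up to 0.0768, and with the 2 groups fitted alone (-0.39, adjusted p = 0.0734, edgeR).

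**Figure D4:**
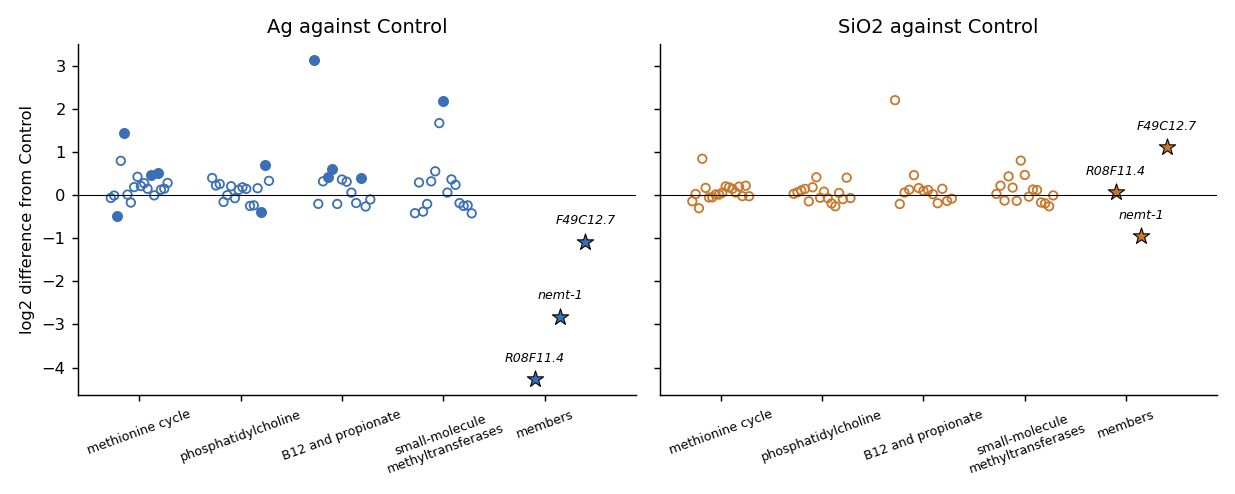
Log2 difference from Control in Ag (left) and SiO2 (right) of each gene of the 4 lists and of R08F11.4, nemt-1 and F49C12.7 (stars), with filled points for list genes called by edgeR at an adjusted p under 0.05. All list genes lie above the stars of the 3 genes in Ag, which the choice of the 3 genes for low values there makes likely. No list gene is filled in SiO2.

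Tissue markers were summed in each sample to see what moved together with the 3 genes. None of the markers found was at 0 in all samples. The 8 intestine markers summed to 12935 to 17187 CPM in Control, 9489 to 16830 in Ag and 15188 to 18314 in SiO2. Ag sample 8 was the highest Ag sample in this sum, at 16830 against 10772 or less in the other 4, and it was also the Ag sample highest in F49C12.7. The 6 hypodermis and cuticle markers summed to 660.2 to 951.5 CPM in Control, 590.8 to 902.7 in Ag and 660.7 to 960.8 in SiO2. In each of the 3 groups the 3 samples highest in this sum were also the 3 highest in nemt-1. They were Control samples 2, 4 and 3, Ag samples 7, 6 and 10 and SiO2 samples 12, 11 and 13. Of these 8 and 6 genes, 0 were called higher and 1 lower in Ag in each list, and 1 and 3 were called higher in SiO2. Over all genes edgeR called 4.35% higher and 3.41% lower in Ag, and 1.91% higher and 0.743% lower in SiO2.

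With group means removed, 27 pairs of a marker sum and a gene gave r from -0.69 to 0.79 over 15 samples. Of these, 8 were beyond 0.5 in size. The highest were F49C12.7 with the intestine sum (r = 0.79, Spearman's rho = 0.65) and nemt-1 with the hypodermis sum (r = 0.78, rho = 0.78). Leaving out the 2 samples farthest from the median of the sum gave 0.47 and 0.82. F49C12.7 also had an r of 0.75 with the sperm sum (0.34 without the 2 farthest samples), 0.51 with the metal-response sum (-0.037), -0.69 with the molting sum (-0.24) and -0.55 with the neuron sum (-0.58). For nemt-1 r was 0.59 with the molting sum (0.64) and -0.56 with the germ line sum (-0.47). These points share their libraries and scaling, and cpr-1, the gene most like F49C12.7, is 1 of the intestine markers. Each sum is led by its most abundant gene and not by all its markers alike. In Control this was asp-1 at 10749 CPM for the intestine and col-19 at 630.6 CPM for the hypodermis. For R08F11.4 the 9 sums gave r between -0.11 and 0.09, and between -0.36 and 0.38 without the 2 farthest samples.

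The sums and calls of the other lists were as follows, beside 4.35% of all genes called higher and 3.41% lower in Ag by edgeR. In SiO2 these shares were 1.91% and 0.743%. The 31 major sperm protein genes summed to 55.9 to 104.8 CPM in Control, 82.3 to 391.3 in Ag, with Ag sample 8 the highest, and 100.9 to 233.3 in SiO2. Of the 30 tested in each comparison, 10 rose in Ag and 20 in SiO2, and none fell in either. The 6 yolk protein genes summed to 51246 to 62584 CPM in Control, 58076 to 65161 in Ag and 48756 to 68086 in SiO2, and 4 of the 6 rose in Ag and 0 were called in SiO2. The 5 neuron markers summed to 404.9 to 486.1 CPM in Control, 357.4 to 435.5 in Ag and 368.3 to 473.8 in SiO2, with 1 of the 5 falling in Ag and 0 called in SiO2. The 8 germ line and oocyte markers summed to 2508 to 4241 CPM in Control, 3375 to 5199 in Ag and 2233 to 4712 in SiO2, and 1 of them rose in Ag. The molting sum was 633.7 to 1060 CPM in Control, 348.8 to 814.6 in Ag and 643.7 to 1000 in SiO2, and the 5 muscle and 5 molting markers had 0 called by edgeR or DESeq2 in either exposure, with 1 and 1 at an unadjusted p under 0.05 in Ag. The 6 metal-response genes summed to 210.7 to 297.7 CPM in Control, 255.5 to 498.4 in Ag and 292.6 to 421.1 in SiO2. The metallothionein mtl-2 rose in Ag by 0.68 ± 0.16 (log2, SE; adjusted p = 0.0242) and was at 0.47 ± 0.15 in SiO2 (adjusted p = 0.109), and mtl-1 was at -0.27 ± 0.19 and 0.41 ± 0.15, neither of which passed. Of the 6, 1 was called in Ag and 0 in SiO2 by edgeR, with 1 and 3 at an unadjusted p under 0.05, against 29.9% and 14.9% of all genes. The part of these sums in the levels of R08F11.4, nemt-1 and F49C12.7 was not tested.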

How the data were processed

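RNA of whole worms was sequenced as single reads of 100 bases in 15 samples (5 Control, 5 Ag, 5 SiO2). The authors trimmed reads with Trim Galore 0.4.5, aligned them to WBcel235 with HISAT2 2.1.0 and deposited a table of counts per gene made with HTSeq 0.9.1 in its strict intersection mode. They also deposited estimated counts from Kallisto, summed per gene with tximport, which were rounded here for tests. The strand setting and the Kallisto version are not given in the sources used here. Gene names and positions came from the Ensembl annotation of WBcel235.

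Genes with at least 3 counts in the samples compared were scaled by TMM and tested in edgeR 4.0.16 (quasi-likelihood F test, R 4.3.3), each exposure against Control in a fit of its 10 samples and SiO2 against Ag in a fit of all 15, with Benjamini-Hochberg adjusted p under 0.05 as a call. SEs were taken from the fitted value and its F, and 95% intervals from a t distribution on the residual degrees of freedom of 10 samples. Exact permutation tests were two-sided over all arrangements of 5 samples against 5. The script was tested on simulated data. Alternatives were other scalings and filters, DESeq2 1.42.0, edgeR's likelihood ratio test, the estimated counts, another set of samples in the fit, and each sample left out. At 16560734 to 24296570 reads a sample, 1 read was worth 0.0395 to 0.0642 CPM, and intervals on counts cover counting error only.

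The 3 genes, the gene lists and the tests were chosen with earlier results of these data known. Named are the 3 genes, the genes within 20000 bases, the 5 genes most alike by Pearson r of log2 CPM (prior count 2) among those with a mean of at least 1 CPM, up to 8 called genes per list and comparison, and up to 4 key enzymes that were not called. Protein sequences, paralogs and further methyltransferases were not analysed here, and the markers opt-2 and numr-1 were not matched. Nothing in the labels ties a sample to a batch, and samples of separate wells may share a worm population, so p-values measure the spread between these wells.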

Additional observations from a re-analysis of the deposited data

Results flagged for a closer look

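In F49C12.7 the Ag sample 8, at 123.6 CPM, stood apart from the other 4 Ag samples (53.6 to 72.9 CPM) by Dixon's test on CPM (ratio 0.724). The test was not run on the log scale. Of 9 groups of 5 samples looked at, this was the only one flagged. Chance flags about 1 group in 20, so 1 flag among 9 can arise by chance. The same sample was the highest Ag sample in the intestine, sperm and metal-response sums. In the molting sum it was the lowest of all 15 samples, at 348.8 CPM. It ranked 2 from the lowest in Ag in the hypodermis, muscle, neuron and yolk sums. F49C12.7 also differed in direction between the exposures: every Ag sample was below and every SiO2 sample above every Control sample, with SiO2 2.20 above Ag on the log2 scale. This difference between the exposures was not tested, because the Ag samples chose the gene.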

How the results depend on the processing

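No paired analysis was possible because the samples are numbered 1 to 15 and no number recurs between groups. The differences of the 3 genes kept their direction under all alternatives, apart from R08F11.4 in SiO2 against Control, which ran from -0.035 to 0.16 with 1 sample left out and was below 0 without SiO2 sample 13 (-0.035) or SiO2 sample 14 (-0.023). The values for SiO2 against Control in nemt-1 ran from -1.25 to -0.74 with 1 sample left out (adjusted p 0.0340 to 0.2078) and passed at -1.25 without SiO2 sample 12 and, at -0.96, with the likelihood ratio test. F49C12.7 passed in SiO2 under every alternative, between 1.05 and 1.20. The Ag values ran from -4.45 to -4.16 for R08F11.4, -3.06 to -2.70 for nemt-1 and -1.35 to -0.99 for F49C12.7 over all alternatives. The 1604 calls in Ag became 3167 with DESeq2 and 2763 with the likelihood ratio test, and 353 to 1833 with 1 sample left out. The 551 calls in SiO2 became 995, 1095 and, with all 15 samples in 1 fit, 222, and 251 to 853 with 1 left out. The 720 calls in SiO2 against Ag became 1647, 1474 and, with the pair of groups alone, 409, and 392 to 2052 with 1 left out. The cause of these shifts was not tested. Of the 11 list genes called in Ag, hach-1 (adjusted p up to 0.0543) and nhr-68 (up to 0.0505) were also lost under other scalings, fits or tables, and the other 9 were not. Depth limits R08F11.4 in Ag most, at 11 to 28 reads a sample.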
